A study of Mus musculus with 24 samples.

Results

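Of 8749 protein-coding genes that reached a mean of 10 CPM (counts per library total, on a fixed common scale) in both input groups of an RNA immunoprecipitation (RIP) experiment, the 100 with the highest ratio of mean pull-down to mean input in cells given a GFP plasmid are described here across the 8 groups of the series. Among genes at that level, and apart from names left out below, they are the mRNAs most enriched on GFP-binding beads when GFP itself was the tagged protein. The choice used the CPM by library total of the 6 GFP libraries. All 3 pull-down libraries had to lie above all 3 inputs, which 2196 of the 8749 genes did, and 76 of those with names starting Zfp, Pcdh, Col, Lam, Eif, Cenp or Notch were left out, so that 2120 genes were ranked. The tables hold 57010 gene rows, of which 21771 are protein-coding. Because the members were selected on measured values of the GFP pull-down and input, their enrichment in those libraries is a description and was given no test.

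The series measured RNA of GT1-7 cells, immortalised mouse neurons of the hypothalamus that secrete gonadotropin-releasing hormone, in 24 libraries of the CEL-seq2 type, which reads the 3′ ends of polyadenylated RNA. In the RIP experiment, cells received 6 µg of plasmid for GFP or for GFP-Mkrn3, a GFP fusion of makorin ring finger protein 3, and were lysed after 24 h. From each lysate, 5% was kept as input and the rest was bound to GFP-Trap beads (the IP), which gave GFP input, GFP IP, GFP-Mkrn3 input and GFP-Mkrn3 IP with 3 libraries each. In the fractionation experiment, total and cytoplasmic RNA came from unmodified cells (wt) and from cells with stable GFP-Mkrn3 (Mkrn3ox), again with 3 libraries in each of the 4 groups. A stable line with GFP alone was not among the groups, and the labels do not say whether Mkrn3ox is 1 clone or whether libraries came from separate cultures, so p-values measure the spread between these libraries, which may be technical. GFP-Trap beads carry a small antibody fragment that binds GFP, and a pull-down with GFP alone is the usual control that shows which RNAs come down without the protein under study. Makorins are zinc-finger proteins with a RING domain that bind RNA and act as ubiquitin ligases.

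By known function, assigned by hand with the results known, 10 of the 100 members belong to microtubule motors, cilia and the spindle, 7 to the actin and spectrin cytoskeleton, 7 to ribosome biogenesis, 12 to splicing, RNA binding and RNA turnover, 3 to translation and tRNA, 8 to DNA replication, repair and chromatin, and 11 to ubiquitin, the proteasome and chaperones. A further 3 act in nuclear transport, 11 in membrane traffic, 6 in matrix, adhesion and growth factor reception, 8 in metabolism, 4 in kinase and phosphoinositide signalling and 2 in the vault particle, and 8 are of other or less well known function.

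Dync2h1, the heavy chain of the motor that carries cargo back along cilia, ranked first. Its level was 28.8, 31.6 and 36.7 CPM in the 3 GFP inputs and 78.4, 91.1 and 94.3 CPM in the 3 GFP IP libraries (CPM here and below on the TMM scale of edgeR, not divided by gene length). With the other plasmid it was 32.9, 34.7 and 38.2 CPM in the inputs and 57.1, 47.8 and 64.8 CPM in the IP. The GFP IP libraries lay above all other RIP libraries, and the GFP-Mkrn3 IP libraries lay between them and the inputs. The ratio of mean IP to mean input by library total was 2.52 for Dync2h1 and 1.83 for the last member, Dstyk, a kinase. Uggt2, a folding sensor of the endoplasmic reticulum, ranked second, with 16.6, 14.9 and 15.1 CPM in the GFP inputs and 33.8, 41.7 and 44.8 CPM in the GFP IP. Pdcd11, a factor of ribosomal RNA processing, went from 66.7, 66.1 and 70.7 to 201, 156 and 165 CPM, and Cmtr1, which methylates the mRNA cap, from 9.18, 14.5 and 10.4 to 32.6, 25.5 and 28.8 CPM. In each of these genes the lowest IP library stood clear of the highest input, as the rule required. Next in rank were, among others, Nopchap1, Safb, Lrpprc, Snrnp200, Rrp12, Thbs3, Ahnak, Vcp, Thbs1 and Kif13b. In the RefSeq annotation of GRCm38, the build of the files (mm10), Dync2h1 lies on chromosome 9, 6928550 to 7178306, Uggt2 on chromosome 14, 118982006 to 119099796, Pdcd11 on chromosome 19, 47090735 to 47131146 and Cmtr1 on chromosome 17, 29660595 to 29705979.

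As a description of the libraries that chose them, the members' log2 fold change of GFP IP over GFP input ran from 0.98 to 1.44 with a median of 1.05, against a median of -0.00 over the 13052 genes tested. Their summed level was 22288 ± 381 CPM (SD, n = 3) in GFP input and 47103 ± 2555 CPM in GFP IP. It was 22145 ± 75.9 CPM in GFP-Mkrn3 input and 28867 ± 1474 CPM in GFP-Mkrn3 IP. Across members, the median level was 80.5, 175, 79.1 and 111 CPM in these 4 groups, while that of all eligible genes stayed between 53.5 and 56.5 CPM. By library, the median log2 level over the mean of the same plasmid's inputs was 1.14, 1.03 and 1.03 in the GFP IP libraries and 0.37, 0.32 and 0.53 in the GFP-Mkrn3 IP libraries. The GFP-Mkrn3 IP libraries thus differed among themselves: 97, 83 and 100 of the 100 members stood above their own input mean in libraries 1, 2 and 3.

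**Figure D1:**
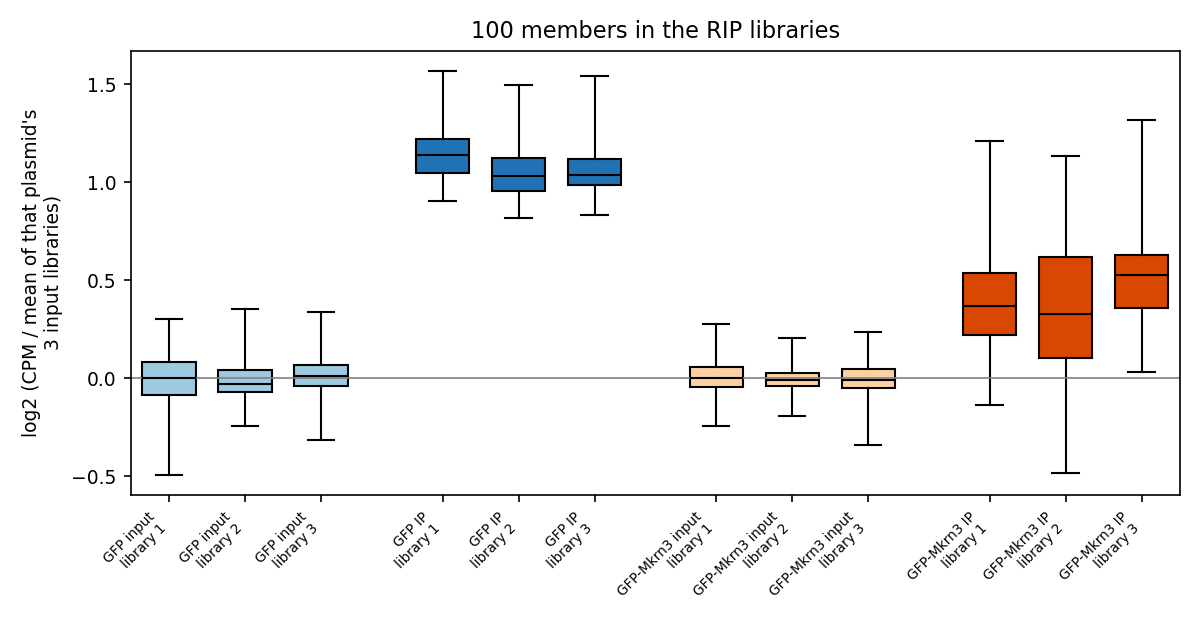
Level of the 100 members in each of the 12 RIP libraries, as log2 of CPM over the mean of the 3 inputs of the same plasmid; boxes show median and quartiles over members, whiskers the lowest and highest member. The GFP IP boxes, from the libraries that chose the members, have medians of 1.03 to 1.14, and the GFP-Mkrn3 IP boxes have medians of 0.32 to 0.53.

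The cut by rank fell in a dense part of the ranking. The last members, Copa, Pnisr and Dstyk, and the first genes outside, Ggcx and Myom1, all had a ratio that rounds to 1.83, and Atm, the next, had 1.82. At the limit on level, Ranbp17 entered with 10.4 and 12.6 CPM by library total in the GFP and GFP-Mkrn3 inputs, whereas Fhip2b, at 10.6 and 9.66 CPM, stayed out. Cdkal1, at 9.29 and 11.7 CPM and a ratio of 2.24, and Pfkfb2, at 9.20 CPM in the GFP inputs and a ratio of 1.97, were also left out by level. These are examples: 163 protein-coding genes with counts in both input groups had a higher ratio than Dstyk but missed the level. All 163 had every GFP IP library above every GFP input, and none has a name left out by the rule. Among names left out, Lamb2 (2.22), Zfp382 (2.06), Col6a1 and Col8a1 (1.91 each) would have ranked among the 100.

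The 6 GFP-Mkrn3 libraries gave no part of the ratio that chose the members, apart from the level their inputs had to reach, and they ask whether the same mRNAs were above input when GFP carried Mkrn3. Of the 100 members, 69 were higher in GFP-Mkrn3 IP than in GFP-Mkrn3 input and 0 lower (edgeR quasi-likelihood test, Benjamini-Hochberg adjusted p under 0.05 over 13052 genes), where 13.9% of all genes tested were called higher and 12.8% lower. At an unadjusted p under 0.05, 75 were higher and 0 lower, and DESeq2 called 72 higher and 0 lower. The shares above are not for these measures, whose shares of all genes are not given here. Of the 69 calls, 54 held in all 13 alternative fits and 15 were lost in 1 or more, given with the genes named; with 1 library left out the count was lowest, 57, without GFP-Mkrn3 input 1. The members' median log2 fold change was 0.41, that is 1.33-fold, with quartiles of 0.25 and 0.59, against a median of 0.03 over all genes tested. In 75 members all 3 IP libraries lay above all 3 inputs (20.8% of all genes tested), and in 0 members all 3 inputs lay above all 3 IP libraries (19.9%). The log2 enrichment with GFP-Mkrn3 was below that with GFP in 98 of the 100, and its median share of the GFP value was 39.0%, given without a test because the GFP values chose the members.

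Over the 8749 eligible genes, the log2 fold changes of the 2 pull-downs over their own inputs, which share no library, had a Pearson correlation of 0.503 and a Spearman correlation of 0.486, given as a description across genes, which are not independent replicates. Over the members alone, whose GFP values the rule confines to a narrow range, these were 0.233 and 0.231. The 100 genes next in rank had medians of 0.92 with GFP and 0.33 with GFP-Mkrn3, and 59 of them were called higher with GFP-Mkrn3, values close to those of the members. Among the 100 eligible genes highest in GFP-Mkrn3 IP over input, 9 were members.

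**Figure D2:**
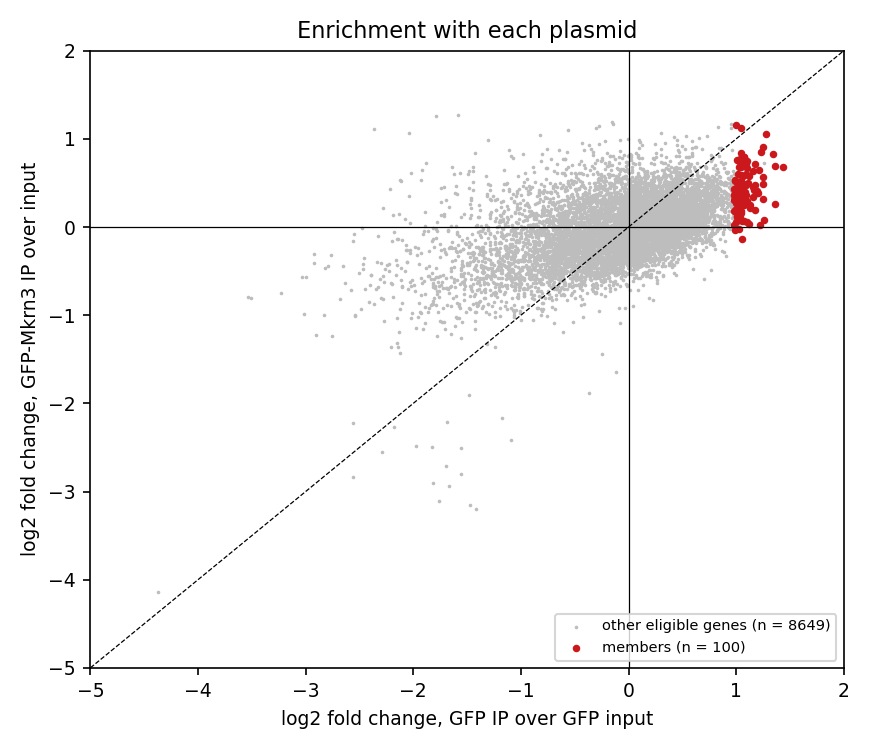
Log2 fold change of IP over input with the GFP plasmid (x axis, used to choose the members) and with the GFP-Mkrn3 plasmid (y axis) for 8749 eligible genes; red points are the 100 members and the dashed line marks equal values. The members lie between 0.98 and 1.44 on the x axis and spread from -0.13 to 1.15 on the y axis, 98 of them under the dashed line.

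Among the motor, cilium and spindle genes, 8 of 10 rose in the GFP-Mkrn3 IP (median 0.40). For every class, values after a gene's name are log2 fold changes of GFP-Mkrn3 IP over GFP-Mkrn3 input, and CPM values are levels. Class counts stand beside 69 of all 100 members and 13.9% of all genes tested called higher. Differences between the classes, which were assigned by hand, were not tested. Dync2h1 rose by 0.68 (SE 0.129, adjusted p = 9.47e-04). Dync1h1, the heavy chain of the main cytoplasmic dynein, had 1546, 1580.4 and 1626 CPM in the GFP-Mkrn3 inputs and 2078, 1990.5 and 2296 CPM in the IP, without overlap, and rose by 0.42 (SE 0.0845, adjusted p = 0.00142). With GFP it had gone from 1623 ± 66.8 to 3643 ± 365 CPM. Kif13b, a kinesin, rose by 0.39, Rttn, a centriole protein, by 0.73, and Kntc1, a kinetochore protein, by 0.68, as did Wdr35 of intraflagellar transport, the kinesin partner Kifap3 and the microtubule polymerase Ckap5 by 0.32 to 0.41. Ift172, also of intraflagellar transport (0.16, adjusted p = 0.31), and Tbcd, a tubulin cofactor (0.29, adjusted p = 0.0534), did not pass the test. When 1 library was left out, the call of Kif13b was lost without GFP-Mkrn3 input 3 (adjusted p = 0.0558), that of Wdr35 without GFP-Mkrn3 input 1 or 2 or GFP-Mkrn3 IP 3 (up to 0.0563), that of Ckap5 without any 1 input or IP 3 (up to 0.122), and that of Kifap3 without any 1 input, IP 1 or IP 3 (up to 0.174). With the compared groups alone, Ckap5 also missed the threshold (0.0625).

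The actin and spectrin group was divided, with 3 of 7 higher (median 0.35). Flna, an actin crosslinker, had 3445, 3514 and 3380.3 CPM in the GFP-Mkrn3 inputs and 4426, 4665 and 4530.5 CPM in the IP, and rose by 0.40 (SE 0.0751, adjusted p = 8.90e-04). Myo6, a myosin that moves toward the minus end of actin, also rose (0.45, adjusted p = 0.0135), but not without GFP-Mkrn3 input 1 (0.0802). Ahnak, which encodes a giant scaffold protein, was 33.3, 37 and 33.5 CPM in the GFP inputs and 87.5, 75.3 and 79.7 CPM in the GFP IP. With GFP-Mkrn3 it was 36.7, 38 and 36.5 CPM in the inputs and 35.4, 30.0 and 48.1 CPM in the IP, whose libraries lay on both sides of the inputs (0.02, adjusted p = 0.928). Myh10, a nonmuscle myosin, had the lowest value of all members, with 310.2, 316 and 351 CPM in the inputs and 297, 264 and 333 CPM in the IP (-0.13, adjusted p = 0.368), although it had gone from 299 ± 32.4 to 622 ± 64.9 CPM with GFP. Sptan1, a spectrin (0.19), and Syne3, a protein of the nuclear envelope (0.35), did not pass either.

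In ribosome biogenesis, 3 of 7 rose (median 0.32). Nopchap1, which helps assemble the particles that guide ribosomal RNA modification, had 81.1, 65.4 and 67.2 CPM in the GFP-Mkrn3 inputs and 150.4, 124 and 172 CPM in the IP, and rose by 1.06 (SE 0.122, adjusted p = 9.00e-06), the value next below Apex2 and Krba1 among the members. Mdn1, a very large ATPase of the maturing large subunit, rose by 0.48, and Utp20, of the small subunit processome, by 0.58. Pdcd11, of rank 3 with GFP, was 71.6, 83.1 and 81.6 CPM in the inputs and 96.6, 86.4 and 100.3 CPM in the IP and did not pass (0.26, adjusted p = 0.0707), and neither did Rrp12 (0.32, adjusted p = 0.0507), Cebpz or the helicase gene Ddx21. The RNA group gave 9 of 12 higher (median 0.46). Cmtr1 rose by 0.83 (SE 0.164, adjusted p = 0.0013), and the spliceosome proteins Prpf8 and Snrnp200 by 0.79 and 0.56. Edc4, a scaffold of mRNA decapping, rose by 0.76, the exonuclease Dis3l2 by 0.59, Lrpprc, which stabilises mitochondrial mRNAs, by 0.49, and Srek1, Pnisr and Nrde2 by 0.40 to 0.44. The Nrde2 call (adjusted p = 0.0449) was lost in 7 of the 13 alternative fits, among them those without GFP-Mkrn3 input 1 or 3 or GFP-Mkrn3 IP 1 or 2 (up to 0.155), with the compared groups alone (0.0535) and with no low-count filter (0.0894). The Srek1 call was lost without input 1 (0.0508) and the Pnisr call without input 3 or IP 1 (up to 0.056). Safb, a chromatin-associated RNA-binding protein, was 106, 123 and 149 CPM in the inputs and 133, 115 and 153 CPM in the IP, overlapping (0.08, adjusted p = 0.708). The helicase gene Ddx42 did not pass (0.02, adjusted p = 0.912).

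Of the 3 translation genes, 2 rose (median 0.29). Lars, a leucyl-tRNA synthetase, rose by 0.29, and Gspt1, a translation release factor, had 0.12 (adjusted p = 0.243). The Lars call was lost without any 1 of the 3 GFP-Mkrn3 inputs, without GFP-Mkrn3 IP 1 or 3 (adjusted p up to 0.126) and with the compared groups alone (0.0636). The DNA and chromatin group had the lowest median of the classes, 0.21, with 4 of 8 higher, yet it held the highest single value. Apex2, a DNA repair endonuclease, was 30.0, 24.6 and 27.8 CPM in the GFP inputs and 56.6, 49.2 and 58.7 CPM in the GFP IP. With GFP-Mkrn3 it was 24, 21 and 21.4 CPM in the inputs and 47.5, 45.2 and 55.2 CPM in the IP, and rose by 1.15 (SE 0.126, adjusted p = 4.49e-06). The damage kinases Prkdc and Atr rose by 0.51 and 0.53, and Dnmt1, the maintenance DNA methyltransferase, by 0.25, a call lost without any 1 input or IP 1 (adjusted p up to 0.129) and with no low-count filter (0.0536). Supt16, a histone chaperone subunit, was 222, 221 and 225 CPM in the inputs and 233, 181 and 271 CPM in the IP (0.03, adjusted p = 0.856). Pola1, a DNA polymerase subunit (0.07), Kdm5a, a histone demethylase (0.17), and Clspn, a checkpoint adaptor (-0.03) did not pass.

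Ubiquitin, proteasome and chaperone genes gave 8 of 11 higher (median 0.38). Rnf213, a giant ubiquitin ligase, was 324, 297 and 320.3 CPM in the GFP-Mkrn3 inputs and 482, 553 and 506 CPM in the IP, and rose by 0.71 (SE 0.0855, adjusted p = 1.35e-05). Uggt2 rose by 0.69 (SE 0.139, adjusted p = 0.00147). Vcp, an ATPase that extracts ubiquitinated proteins, went from 605, 595 and 627 to 786, 669.7 and 926 CPM (0.38, adjusted p = 0.00774). Cand1 and Ddb1, of cullin ligases, Nedd4, a ligase, and Ecpas, a proteasome adaptor, rose by 0.36 to 0.49, while the chaperone gene Hsph1 (0.18), Herc2 (0.11) and Fbxo38 (0.17) did not pass. The 3 nuclear transport genes all rose: Ipo5, an importin, by 0.45, Nup133, of the nuclear pore, by 0.58, and Ranbp17 by 0.68.

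Membrane traffic had the highest share of calls among the classes of over 3 genes, 10 of 11 (median 0.41), beside 69 of all 100 members. Cltc, the clathrin heavy chain, had 659.6, 628 and 624 CPM in the GFP-Mkrn3 inputs and 812, 832 and 938 CPM in the IP, and rose by 0.43 (SE 0.0784, adjusted p = 6.31e-04). Ly75, an endocytic receptor, rose by 0.41, Epg5, an autophagy factor, by 0.71, and Igf2r, the receptor that sorts lysosomal enzymes, by 0.25. The Igf2r call (adjusted p = 0.0361) was lost in 7 of the 13 alternative fits, among them those without any 1 of the 3 GFP-Mkrn3 inputs, without GFP-Mkrn3 IP 1 or 3 (up to 0.125) and with the compared groups alone (0.0625). Vps8 and Vps33b, which tether endosomes, Copa, of the coat of Golgi vesicles, and Nbas, Heatr5b and Gapvd1 rose by 0.36 to 0.49, of which the Vps33b call was lost without any 1 input or IP 2 (adjusted p up to 0.102). Matrix and receptor genes had the highest class median, 0.64, with 5 of 6 higher. Thbs3, a thrombospondin, was 32.6, 29.9 and 32.3 CPM in the inputs and 55.7, 62 and 52.7 CPM in the IP, and rose by 0.85 (SE 0.129, adjusted p = 1.50e-04). Its relative Thbs1 rose by 0.65, Tnc, the matrix protein tenascin C, by 0.63, Itga10, an integrin, by 0.68, and Pdgfra, a growth factor receptor, by 0.29, a call lost without input 2 or 3 or IP 1 (adjusted p up to 0.0744). Ltbp1, a binder of latent TGF-beta, had 0.24 (adjusted p = 0.201).

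Metabolic enzymes gave 4 of 8 higher (median 0.32). Ogt, the enzyme that adds O-linked N-acetylglucosamine, was 95.8, 96.2 and 96.1 CPM in the GFP-Mkrn3 inputs and 169.7, 157 and 190.0 CPM in the IP, and rose by 0.84 (SE 0.0932, adjusted p = 5.42e-06). Cad, the enzyme that starts pyrimidine synthesis, rose by 0.80 (SE 0.0965, adjusted p = 1.38e-05). Pfas, of purine synthesis, rose by 0.34, and Aacs, a ketone body ligase, by 0.60. The glycolytic genes Hk2 (0.06) and Pfkp (0.12), Hsd17b4 of peroxisomal oxidation (0.06) and the ceramide synthase gene Cers6 (0.30) did not pass. In signalling, 3 of 4 rose: Rictor, of the mTOR complex, by 0.74, Inpp4a, a phosphoinositide phosphatase, by 0.52, and Dstyk by 0.31, a call lost without GFP-Mkrn3 input 1 or 3 or GFP-Mkrn3 IP 3 (adjusted p up to 0.114). Prkg1, a cGMP-dependent kinase, was 43.3, 42.1 and 45.2 CPM in the inputs and 44.1, 31.1 and 54.7 CPM in the IP (-0.02, adjusted p = 0.936). Of the vault particle pair, the telomerase-associated protein gene Tep1 rose by 0.78 and Mvp, the main vault protein, did not pass (0.07). Among the remaining 8, Krba1 was 17, 16.3 and 16.6 CPM in the inputs and 38.5, 36.4 and 33.6 CPM in the IP, and rose by 1.12 (SE 0.144, adjusted p = 2.83e-05). Zzef1, Focad, Irgq, Dip2b and Prune2 rose by 0.44 to 0.75, and Parp14, an ADP-ribosyltransferase, and Ccdc117 did not pass.

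**Figure D3:**
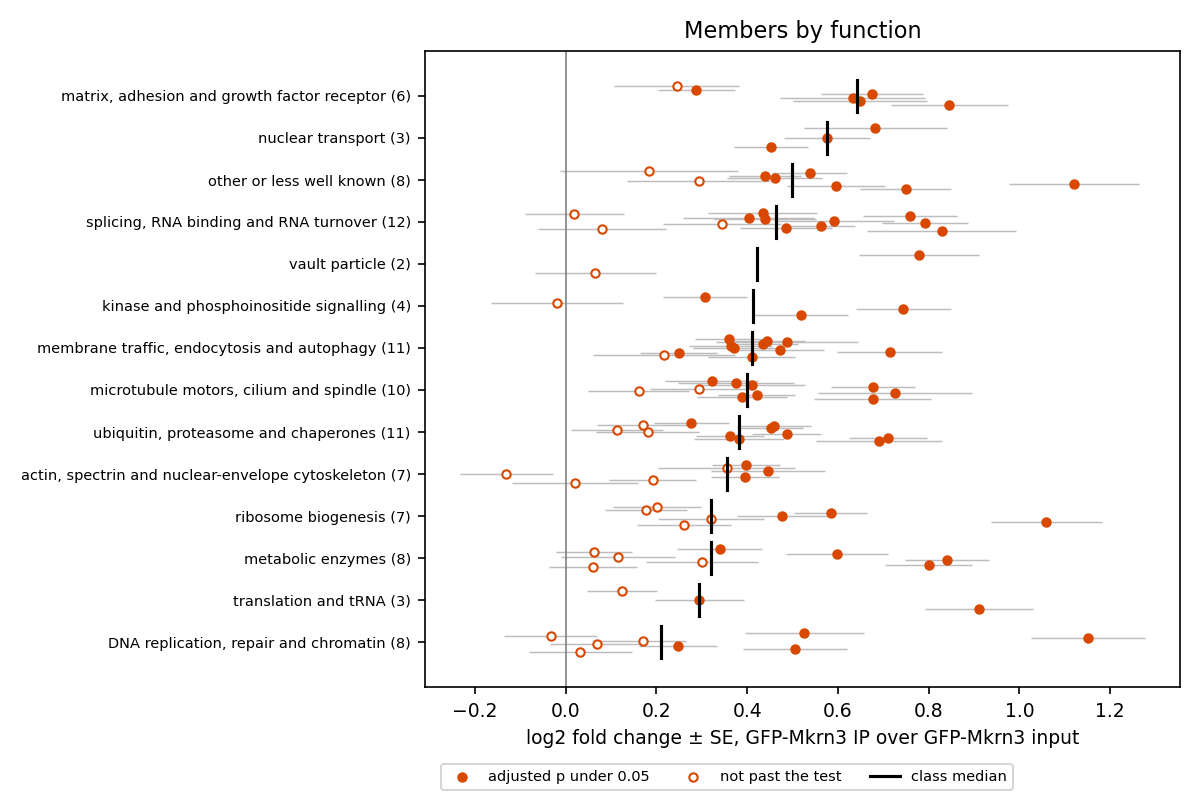
Log2 fold change (± SE) of GFP-Mkrn3 IP over GFP-Mkrn3 input for each member, by functional class with the number of members in brackets; filled points had an edgeR adjusted p under 0.05, open points did not, and black bars are class medians. Class medians run from 0.21 to 0.64, and Apex2 (1.15), Krba1 (1.12) and Nopchap1 (1.06) lie farthest to the right.

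Between the pull-downs, the members were lower with GFP-Mkrn3 than with GFP (median log2 difference -0.64, all 100 below 0), given as values only because this comparison shares the GFP libraries with the choice. In 92 members all 3 GFP IP libraries lay above all 3 GFP-Mkrn3 IP libraries, beside 21.7% of all genes tested, both on the TMM scale. By library total, the scale of the rule, 77 members did so, and the share of all genes on that scale is not given here. Scaling by library size, which moved the median of all genes here from 0.03 to 0.21, gave 96 members below 0, with Krba1, Ranbp17, Tep1 and Apex2 above it. The inputs of the 2 plasmids were close at the median, with a log2 difference of 0.03. In 15 members all GFP-Mkrn3 inputs lay above all GFP inputs (7.01% of all genes), and in 7 the reverse (6.56%). The choice also used the GFP inputs, so these values were given no test.

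RIP libraries held 6254703 to 14575652 counts and fractionation libraries 374386 to 759271. The lowest count of any member in a RIP library was 64, and all 100 passed the low-count filter of that experiment. Mkrn3 itself was at 6.20 ± 2.33 CPM in GFP input, 6.76 ± 1.01 in GFP IP, 3688 ± 74.2 in GFP-Mkrn3 input and 9542 ± 414 in GFP-Mkrn3 IP, as the RIP labels say, whereas the fractionation libraries held 0 to 5 Mkrn3 counts each, which does not check the labels of the lines. Other RNA moved with the pull-downs. The summed level of 12 neuronal markers, 4 of them (Scg2, Snap25, Nefl and Gap43) at 0 in every RIP library, was 357 to 416 CPM in GFP input, 151 to 168 in GFP IP, 386 to 439 in GFP-Mkrn3 input and 262 to 303 in GFP-Mkrn3 IP; Gnrh1 makes up much of it, with 313, 83.8, 319 and 209 CPM. Fibroblast, endothelial and immune markers, which include the member Pdgfra, summed to 501 to 541, 892 to 1010, 506 to 536 and 640 to 649 CPM, with Ptprc and Lum at 0, and astrocyte and oligodendrocyte markers to 32.4 to 44.1 CPM over all 4 groups, with Slc1a3, Sox10, Olig2, Mog and Aqp4 at 0. Nuclear-retained RNAs summed to 5618 to 6824, 8238 to 11064, 5154 to 5597 and 4057 to 8185 CPM, with Meg3 at 0, and 4 of the 6 tested rose with GFP-Mkrn3. The part of these in the members' values was not tested.

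The members were set against gene lists written with earlier results known. Secreted matrix genes and their enzymes, 0.389% of the eligible genes, supplied 4 of the 100 (Thbs3, Thbs1, Tnc and Ltbp1), and of the 52 tested 11 rose (21.2%) and 1 fell (1.92%) with GFP-Mkrn3, beside 13.9% and 12.8% of all genes tested. Ubiquitin ligases and deubiquitinases (2.58%) supplied 5, among them Rnf213, Nedd4, Herc2 and Fbxo38, and of 271 tested 48 rose (17.7%) and 25 fell (9.23%). Centrosome, cilium and motor genes (1.6%) supplied 5, with 27 of 165 higher (16.4%) and 14 lower (8.48%). The shares called higher in these last 2 lists are near that of all genes. DNA repair and replication genes (0.903%) supplied Prkdc, Pola1 and Atr, with 25 of 96 higher (26%) and 6 lower (6.25%). RNA-processing factors (2.09%) supplied Prpf8, Nup133, Ddx21 and Ddx42, chromatin regulators (1.29%) Kdm5a, and adhesion receptors (0.8%) Itga10. C2H2 zinc-finger genes not named Zfp (1.15% of the eligible genes), GTPase regulators (1.43%), and ion channels and transporters (2.4%) supplied 0. So did ribosomal protein (0.903%), respiratory chain (0.834%) and histone genes (0.343%), whose medians in the GFP libraries that chose the members lay below 0. A 0 from any 1 list of these shares says little, and the lists were not tested together. The 82 cytosolic ribosomal protein genes tested had a median log2 fold change of -1.33 with GFP and -0.34 with GFP-Mkrn3, where 2 rose and 39 fell, and the 88 respiratory chain genes -1.45 and -0.38, where 2 rose and 43 fell. The 57 replication-dependent histone genes had -1.10 and -0.89, where 0 rose and 29 fell.

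The gene models of the members spanned more of the genome at the median than those of the eligible genes. In RefSeq, 99 of the 100 were placed (all but Nopchap1), and their median span in the genome, introns included, was 63.2 kb (quartiles 35.5 and 118 kb), against 27.0 kb (upper quartile 60.9 kb) for 8701 eligible genes. The shortest was Irgq with 7.95 kb and the longest Prkg1 with 1201 kb. The median number of annotated transcripts was 4, against 3. The members lay on all autosomes and the X chromosome, with the most, 10, on chromosome 11 and 8 on chromosome 4. These chromosomes hold 692 and 553 of the 8701 eligible genes placed, and chromosome 11 holds the most of any. The span was described with no test, and the length of the mRNA was not used here. A gene within 5 kb was more abundant than the member in the GFP inputs for 18 of the 99, among them Cmtr1 beside Ccdc167 (33.6 CPM), Dync2h1 beside Dcun1d5 (37.6 CPM), Uggt2 beside Dnajc3 (221 CPM) and Pdcd11 beside Atp5md (70.2 CPM). Whether the counting used strand is not stated in the sources used, so reads of such pairs may be shared where their models overlap.

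**Figure D4:**
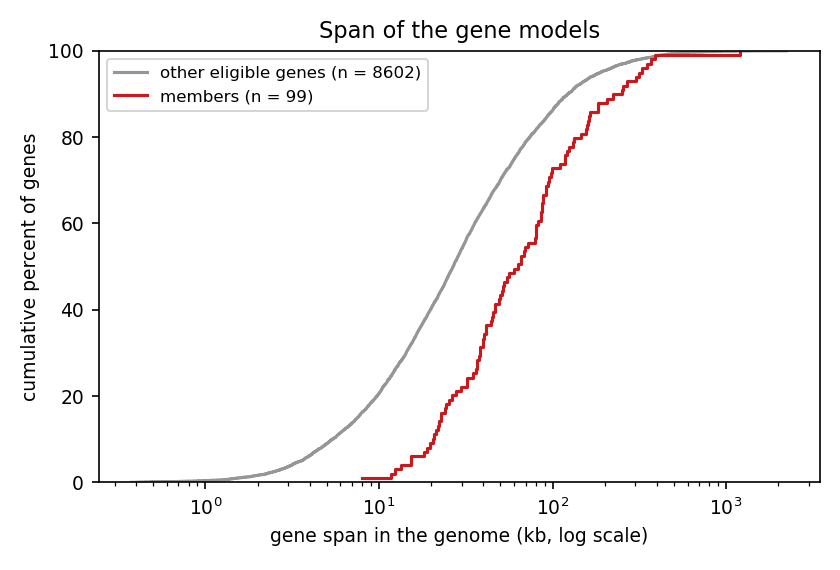
Cumulative percent of genes by span of the gene model in the genome (kb, log scale) for 99 members and 8602 other eligible genes with a RefSeq model. The curve of the members lies to the right, with a median of 63.2 kb; the median over all 8701 eligible genes with a model, members included, is 27.0 kb.

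The fractionation libraries were shallower, and 41 of the 100 members passed the low-count filter there, beside 45.9% of the eligible genes. The 59 others had 0 to 94 counts over the 12 libraries together, and Tnc had 0 counts in all 12, which allows up to 0.476 CPM over their 6303670 counts (3 counts, for counting error only). The members' median level was 11.8 CPM in wt total, 7.76 in wt cytoplasm, 9.10 in Mkrn3ox total and 8.52 in Mkrn3ox cytoplasm, where the eligible genes had 10.9, 9.37, 10.1 and 10.6 CPM. The summed level was 3170 ± 170 CPM in wt total and 2443 ± 276 in wt cytoplasm, and 3232 ± 234 in Mkrn3ox total and 2419 ± 137 in Mkrn3ox cytoplasm. This sum was 22288 CPM in GFP input, so the 2 experiments do not measure the members on 1 scale: the median log2 ratio of wt total to GFP input was -2.98 for members and -2.34 for eligible genes.

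Between cytoplasm and total RNA, which asks how much of an mRNA lies outside the nucleus, most of the 41 tested members did not pass the test. In wt cells 0 were higher in the cytoplasm (0.616% of 5033 genes) and 2 lower (3.16%), and in Mkrn3ox cells 0 higher (0.775%) and 2 lower (3.76%), by edgeR with adjustment over all genes. Their median log2 fold changes were -0.20 in wt and -0.34 in Mkrn3ox, against 0.01 and -0.00 over all genes; by library size the wt median was -0.41 and that of all genes -0.22. At an unadjusted p under 0.05, 10 members passed in wt, 9 of them lower, and 8 in Mkrn3ox, all 8 lower. DESeq2 called 2 lower in wt and 4 lower in Mkrn3ox, with 0 higher in either. Shares of all genes by these measures are not given here, so these counts do not show a lean beyond that of all genes. The same 2 genes passed in both lines, Srek1, a regulator of splicing, and Pnisr, a protein with arginine and serine repeats found in nuclear speckles. Srek1 lies on chromosome 13, 103738565 to 103774616. It had 66.7, 72.5 and 95.1 CPM in wt total and 10.3, 27.6 and 10.9 CPM in wt cytoplasm, and fell by 2.21 on the log2 scale (SE 0.541, adjusted p = 0.0203). In Mkrn3ox cells it had 85.9, 75.5 and 26.6 CPM in total and 7.48, 7.63 and 10.5 CPM in cytoplasm, and fell by 2.83 (SE 0.590, adjusted p = 0.00645). All cytoplasmic libraries of either line lay at or below 27.6 CPM, and the lowest total library, Mkrn3ox total 3, was just under that at 26.6 CPM. Pnisr, on chromosome 4, 21846657 to 21876475, had 75.7, 75.8 and 92.5 CPM in wt total and 23.3, 25.5 and 5.47 CPM in wt cytoplasm (-2.13, SE 0.582, adjusted p = 0.0427), and 126, 103 and 96.5 CPM in Mkrn3ox total and 0, 22.9 and 16.7 CPM in Mkrn3ox cytoplasm (-3.01, SE 0.604, adjusted p = 0.00479). Its total libraries stood clear of every cytoplasmic library, which held 9, 12 and 2 counts in wt and 0, 9 and 8 in Mkrn3ox. In wt cells the Pnisr call was lost without any 1 of the 6 libraries compared (adjusted p up to 0.153), and the Srek1 call without wt cytoplasm 1 or 3 or wt total 3 (up to 0.10); both calls in Mkrn3ox cells stayed in every such fit.

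Between the lines, Focad, which encodes focadhesin, had the largest log2 difference of the 41 tested members, in total RNA and in the cytoplasm. It lies on chromosome 4, 88094620 to 88411011. It had 79.3, 36.2 and 52.3 CPM in wt total and 9.14, 14.7 and 9.98 CPM in the libraries labelled Mkrn3ox total, and fell by 2.28 on the log2 scale (SE 0.565, adjusted p = 0.0146). In the cytoplasm it had 127, 82.9 and 76.6 CPM in wt and 2.49, 20.4 and 6.27 CPM in Mkrn3ox, and fell by 3.29 (SE 0.601, adjusted p = 9.34e-04). The Mkrn3ox libraries held 5, 8 and 6 counts in total and 1, 8 and 3 in cytoplasm, and all 6 lay below all 6 wt libraries. In bulk libraries, a change in the share of cells that make an mRNA and a change in its amount per cell cannot be told apart. Hacd4, which overlaps Focad, was at 85.9 CPM in the GFP inputs where Focad was at 34.6, so that reads of the pair may be shared. In total RNA the Focad call was lost without Mkrn3ox total 1 or 3 or wt total 1 (adjusted p up to 0.0685); in the cytoplasm it stayed in every such fit. Focad was the 1 member called lower in total RNA (3.83% of all genes) and the 1 called lower in the cytoplasm (6.14%).

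The 1 member called higher in Mkrn3ox total (3.56% of all genes) was Igf2r, on chromosome 17, 12682406 to 12769706. It had 121, 175 and 141 CPM in wt total and 311, 282 and 384 CPM in Mkrn3ox total, without overlap, and rose by 1.16 (SE 0.267, adjusted p = 0.00834); without Mkrn3ox total 3 the adjusted p was 0.0604. In the cytoplasm it overlapped, with 266, 217 and 164 CPM in wt and 229.5, 176 and 328 CPM in Mkrn3ox (0.18, adjusted p = 0.739). The 1 member called higher in Mkrn3ox cytoplasm (4.31%) was Hsph1, a chaperone gene on chromosome 5, 149616843 to 149636498. It had 20.7, 27.6 and 41 CPM in wt cytoplasm and 87.3, 127 and 62.7 CPM in Mkrn3ox cytoplasm, again without overlap, and rose by 1.63 (SE 0.491, adjusted p = 0.036). The call was lost without Mkrn3ox cytoplasm 1 or 2 or wt cytoplasm 1 or 2 (adjusted p up to 0.159). In total RNA Hsph1 had 25.2, 54.4 and 13.4 CPM in wt and 73.1, 79.2 and 98.1 CPM in Mkrn3ox, in the same order but not past the test (1.44, adjusted p = 0.0686). The median of the 41 members was 0.03 in total RNA and -0.15 in the cytoplasm, against -0.01 and 0.03 over all genes; by library size the cytoplasmic medians were 0.18 for members and 0.38 for all genes, so the sign of the members' median there turns with the scaling while its place below that of all genes stays. For the cytoplasm-to-total ratio, edgeR called 0 of the 41 members higher (0.0795% of all genes) and 0 lower (0.139%) between the lines. At an unadjusted p under 0.05, 3 were higher or lower, and DESeq2 called 0. The shares of all genes by these last measures are not given here.

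**Figure D5:**
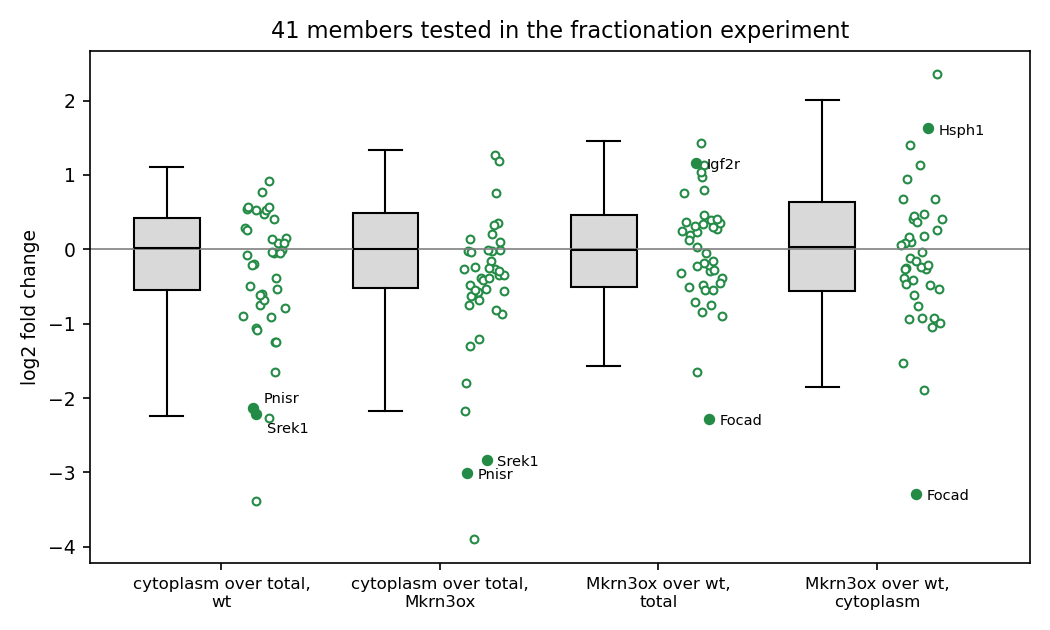
Log2 fold change of the 41 members tested in the fractionation experiment (green points; filled and named where the edgeR adjusted p was under 0.05) in 4 comparisons, beside grey boxes for all 5033 genes tested (median, quartiles, whiskers at the 5th and 95th percentile). Srek1 and Pnisr are low in the cytoplasm of both lines, and Focad is low in Mkrn3ox in total and cytoplasmic RNA.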

How the data were processed

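RNA was counted per gene in 12 RIP and 12 fractionation libraries of GT1-7 cells, in 8 groups of 3 taken from the labels. The authors deposited raw counts, whole numbers per gene and library. Per the submitters' processing notes, the tools were cutadapt, STAR and HTSeq and the genome build mm10. Their versions and settings, the annotation, and whether strand or molecular identifiers were used, are given in none of the sources used. Each experiment was fitted separately on all its deposited counts with edgeR (version 4.0.16, R 4.3.3). Scaling was by TMM, low counts were removed with filterByExpr by group, and the model held group means alone. The quasi-likelihood F test was two-sided, with Benjamini-Hochberg adjustment over 13052 RIP and 5033 fractionation genes, and genes with an adjusted p under 0.05 were called. The fits were first tested on simulated data. The typical biological coefficient of variation was 0.115 in the RIP and 0.384 in the fractionation experiment, so a change of given size is less readily called in the latter. Levels are CPM on the TMM scale. The members, functional classes and gene lists were chosen with earlier results of these data known. Genes given values are the 15 of highest rank, up to 4 of highest rank in each class or list, called members, the 5 highest and 5 lowest members in GFP-Mkrn3 IP over input and the 3 genes on either side of the rank limit; others were named after their values were seen. Of the members, 5 are not reported here by name and are included in the counts and medians. Gene spans came from RefSeq (GRCm38.p6). Promoter windows were found for 75% of members, too few for a check of promoter sequence. Alternatives were DESeq2 1.42.0 (size factors or test), library size scaling, no filter or a mean of at least 20 counts, the compared groups alone, a replicate block, leaving out each library, and other choices of members. Tables were joined in Python 3.11.15 (pandas 2.3.3, numpy 2.4.6), with figures by matplotlib 3.10.9.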

Additional observations from a re-analysis of the deposited data

How the results depend on the processing

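With GFP-Mkrn3, 69 members were called higher than input; over the alternatives the count ran from 67 to 80, and from 57 (without GFP-Mkrn3 input 1) to 75 (without GFP-Mkrn3 IP 2) when 1 library was left out, with 0 called lower in each and a median log2 fold change of 0.37 to 0.49. Other choices of members shared 96 (names kept), 90 (minimum of 20 CPM) and 99 (TMM-scaled CPM) of the 100. Shares of all genes called under these alternatives are not given here, for either experiment. In the fractionation experiment the counts of called members are small and move easily. In wt cytoplasm against total, 2 were called, 3 by library size, 1 with the names kept, and 0 to 1 when a library was left out. In Mkrn3ox cytoplasm against total, 2 were called, 4 by DESeq2, 4 with the compared groups alone and 1 with the names kept, and 2 to 3 when a library was left out. In total RNA between the lines, 2 were called, 4 by DESeq2 and 0 to 3 when a library was left out. In the cytoplasm between the lines, 2 were called, 4 by DESeq2, 4 by library size and 1 to 3 when a library was left out. The cause was not tested.

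The replicate numbers showed little sign of pairing: the correlation of same-numbered libraries' deviations from their group means ran from -0.187 to 0.0334. With 3 libraries per group, this does not show whether same-numbered input and IP libraries came from 1 lysate. The main fit did not pair them. With the replicate number as a block, 67 members were called higher in GFP-Mkrn3 IP, where Igf2r (adjusted p = 0.0748), Nrde2 (0.0664) and Kifap3 (0.054) were lost, 1 was called in wt cytoplasm against total, where Pnisr was lost (adjusted p = 0.0796), and 2 in each of the other 3 comparisons of the fractionation experiment. Depth limits the fractionation results: 59 of the 100 members had too few counts there to be tested.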
